A study of Mus musculus with 16 samples.

Results

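The 10 genes described here, *Pecam1*, *Cdh5*, *Cldn5*, *Kdr*, *Flt1*, *Tek*, *Tie1*, *Eng*, *Emcn* and *Vwf*, are markers of endothelial cells, the cells that line blood vessels. They were chosen by name from the 25054 genes in the table of raw read counts, all 10 were found, and all 10 passed the filter on low counts. RNA was sequenced from 16 mouse osteosarcomas. All mice carried the genotype OsxCreERT2+/-;p53fl/fl;Rb1fl/fl and received 400 ug of tamoxifen per gram at 1 month of age, and they were of both sexes and over 6 months old. The 8 KO tumors, from 8 mice, also carried Arid1afl/fl and have no body site in their labels. Animal codes in the sample names assign the 8 WT tumors to 4 mice: right pelvis, right femur, left limb and left shoulder of N42, spine and pelvis of N43, right hind limb of N215, and lung of N25. The Cre is driven by the promoter of Osterix, a gene of the osteoblast lineage, so endothelial cells were not the cells in which the alleles were meant to be deleted. The labels do not say whether a tumor was primary or metastatic. The study describes metastases in KO mice and none in WT mice, so what the WT tumor labeled lung is was not settled by the sources used here.

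Blood vessels grow and are held in a resting state through a few receptor systems that are largely limited to endothelium. Vascular endothelial growth factor drives sprouting through the receptor KDR, while FLT1 binds the same ligand tightly and signals weakly. Angiopoietins act through TEK, whose relative TIE1 tunes that signal, and endoglin assists receptors of the TGF-beta family. Cells of the vessel wall are joined by VE-cadherin, PECAM1 and claudin-5. Endothelium also differs by organ. Bone has capillaries rich in endomucin, vessels of muscle and lung are dense capillary beds, and von Willebrand factor is made unevenly along the vascular tree and also by megakaryocytes.

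Total counts on genes ranged from 1109487 to 15059640 in KO and from 7806160 to 16962329 in WT. Values are CPM, counts scaled to a common library size after TMM normalization, which corrects for a few genes that take up much of a library. In 2 shallow KO tumors the 10 genes together had only 418 counts (Massa) and 196 counts (Grilka), against 2157 to 6138 in the other KO tumors and 3089 to 34990 in WT. *Arid1a*, counted over the whole gene, was at 187 ± 57.5 CPM in KO and 167 ± 31.8 CPM in WT (SD, n = 8 each), and the log2 fold change was 0.16 (SE 0.22, edgeR adjusted p = 0.715). Whole-gene counts do not separate reads of the floxed exons. Several tumors held RNA of other tissues. The summed level of 12 lung epithelium genes was 30240 CPM in N25 lung and 13936 CPM in KO Massa, and at most 77.5 CPM in the other 14 tumors. A list of 14 skeletal muscle genes summed to 153102 CPM in Oregon and 90163 CPM in Montana, and 10 salivary gland genes summed to 123214 CPM in Prince. The osteoblast list summed to 851 CPM in Prince, 2850 CPM in Montana, 3152 CPM in Oregon, 3526 CPM in N25 lung and 3787 CPM in Massa, against a median of 64297 CPM in the 7 bone-site WT tumors. One of these, N215 right hind limb, was at 5593 CPM, near the tumors just named.

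The promoters of 7 of the 10 genes were matched by symbol in RefSeq (GRCm38.p6), as windows of 250 bases before and 50 after the start. *Pecam1*, *Cdh5* and *Vwf* had no entry. The windows of *Tek* and *Tie1*, the pair whose levels were most correlated across tumors, and of *Emcn*, the gene least correlated with the rest, are shown 5′ to 3′ on the gene's strand. Capitals mark the letters AGGAAG or GGAAGT or CCGGAA on either strand, which contain the GGAA core bound by ETS factors, a family that includes regulators of endothelial genes.
Tek, chr4:94739039-94739338, plus strand: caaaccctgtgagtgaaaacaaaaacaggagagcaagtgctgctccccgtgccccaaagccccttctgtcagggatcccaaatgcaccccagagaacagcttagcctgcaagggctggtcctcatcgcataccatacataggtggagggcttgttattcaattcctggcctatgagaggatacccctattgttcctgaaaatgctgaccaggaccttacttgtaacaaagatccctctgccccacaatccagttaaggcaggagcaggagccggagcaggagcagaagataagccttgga
Tie1, chr4:118489800-118490099, minus strand: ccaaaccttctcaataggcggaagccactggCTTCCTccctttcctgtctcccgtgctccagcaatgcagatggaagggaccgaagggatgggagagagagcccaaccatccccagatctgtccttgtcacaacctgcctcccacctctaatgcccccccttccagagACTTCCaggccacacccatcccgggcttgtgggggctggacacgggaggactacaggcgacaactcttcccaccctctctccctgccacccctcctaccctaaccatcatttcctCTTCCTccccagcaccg
Emcn, chr3:137340828-137341127, plus strand: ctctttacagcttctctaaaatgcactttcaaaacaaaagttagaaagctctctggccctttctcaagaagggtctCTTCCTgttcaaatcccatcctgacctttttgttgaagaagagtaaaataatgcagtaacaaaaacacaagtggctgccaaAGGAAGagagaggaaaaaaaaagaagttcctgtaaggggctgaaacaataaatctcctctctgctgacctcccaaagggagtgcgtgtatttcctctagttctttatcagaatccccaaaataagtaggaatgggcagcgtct
The *Tie1* window held 9 matches to GGAA, the *Emcn* window 6 and the *Tek* window 2, against a median of 3 over all 32851 windows of the table, of which 96% held at least 1. *Cldn5* was the member without one. AGGAAG was in the windows of *Emcn*, *Eng*, *Flt1* and *Tie1* and in 35.4% of all windows. GGAAGT was in those of *Eng*, *Flt1*, *Kdr* and *Tie1* and in 23.8% of all windows, and CCGGAA was in that of *Kdr* and in 14.9%. AGGAAG and GGAAGT overlap where they share GGAAG. Of the other letters searched, AGATAA was in the *Tek* window and 11.2% of all windows, ACAAAG in those of *Eng* and *Tek* and 18.7%, and TATAAA in that of *Flt1* and 13.6%. *Tek* held no marked match, so *Tek* and *Tie1* shared none.

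**Figure D1:**
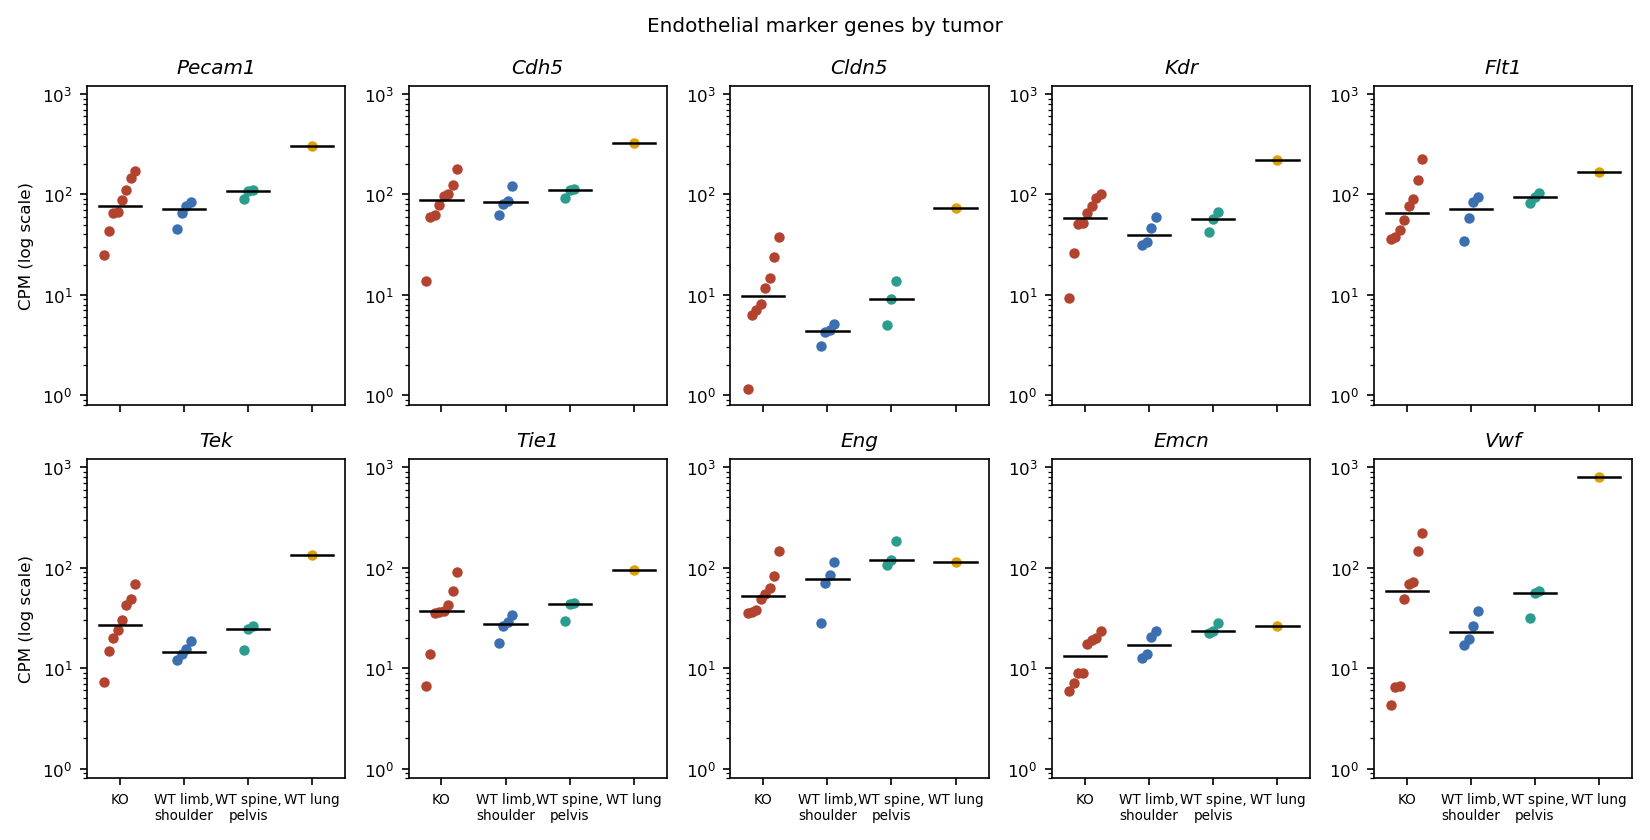
Level of each of the 10 genes in each tumor, in CPM on a log scale; a point is 1 tumor and a line is the median of its class (8 KO, 4 WT limb or shoulder, 3 WT spine or pelvis, 1 WT lung). The lung tumor lies above all bone-site WT tumors for 8 genes, but not for *Eng* and *Emcn*, and the KO tumors spread more widely than the bone-site WT tumors for most genes.

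To put the genes on 1 scale, levels were divided by exon length. In the 7 bone-site WT tumors, the median level per kilobase was 26.1 CPM for *Eng*, 22.1 for *Cdh5*, 13.4 for *Pecam1*, 6.18 for *Flt1*, 6.05 for *Tie1*, 5.11 for *Kdr*, 4.13 for *Emcn*, 3.53 for *Cldn5*, 3.26 for *Tek* and 1.95 for *Vwf*. *Eng* and *Cdh5* did not differ beyond their spread, with a mean log2 difference of −0.02 ± 0.99 (SD, n = 7). *Cdh5* exceeded *Pecam1* and *Pecam1* exceeded *Flt1* in 7 of 7 tumors, the latter by 1.22 ± 0.25 (SD) on the log2 scale. *Kdr* also exceeded *Emcn* in 7 of 7, by 0.48 ± 0.24, and *Tek* exceeded *Vwf* in 6 of 7, by 0.89 ± 0.64. The other neighbours in this order did not differ by more than 1 SD. In the 8 KO tumors *Cdh5* was first with a median of 20.9 CPM per kilobase and *Emcn* last with 2.43. Only *Pecam1* and *Tie1* were neighbours there that differed by more than 1 SD, by 0.93 ± 0.65 (log2 scale, n = 8), with *Pecam1* higher in 8 of 8. Exon length is that of all annotated exons together, which lowers the level per kilobase of genes with long alternative transcripts.

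The first question was whether the genes differed between KO and WT. None of the 10 was past the threshold of 0.05 on adjusted p in edgeR's quasi-likelihood test, and none had an unadjusted p under 0.05. Over all 15413 genes tested, 4.01% were past the threshold, 1.86% higher and 2.15% lower in KO, and 23% had an unadjusted p under 0.05. The log2 fold change was below 0 for 9 of the 10 genes, against 44.1% of all genes, with a median of −0.28 against 0.10. This direction depended on the tumors and the method used. Without the lung tumor, 7 of the 10 were above 0 and the median was 0.23. When Massa, Montana, Oregon and Prince were left out with it, 8 were below 0. In DESeq2 on all 16 tumors, and in edgeR without Prince, 6 were below 0. In bulk tumor RNA, fewer endothelial cells and less of a transcript per endothelial cell cannot be told apart. The p-values treat tumors of 1 WT mouse as independent. With counts summed per mouse, all 10 were below 0, with a median of −0.57 and adjusted p from 0.708 to 0.984.

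**Figure D2:**
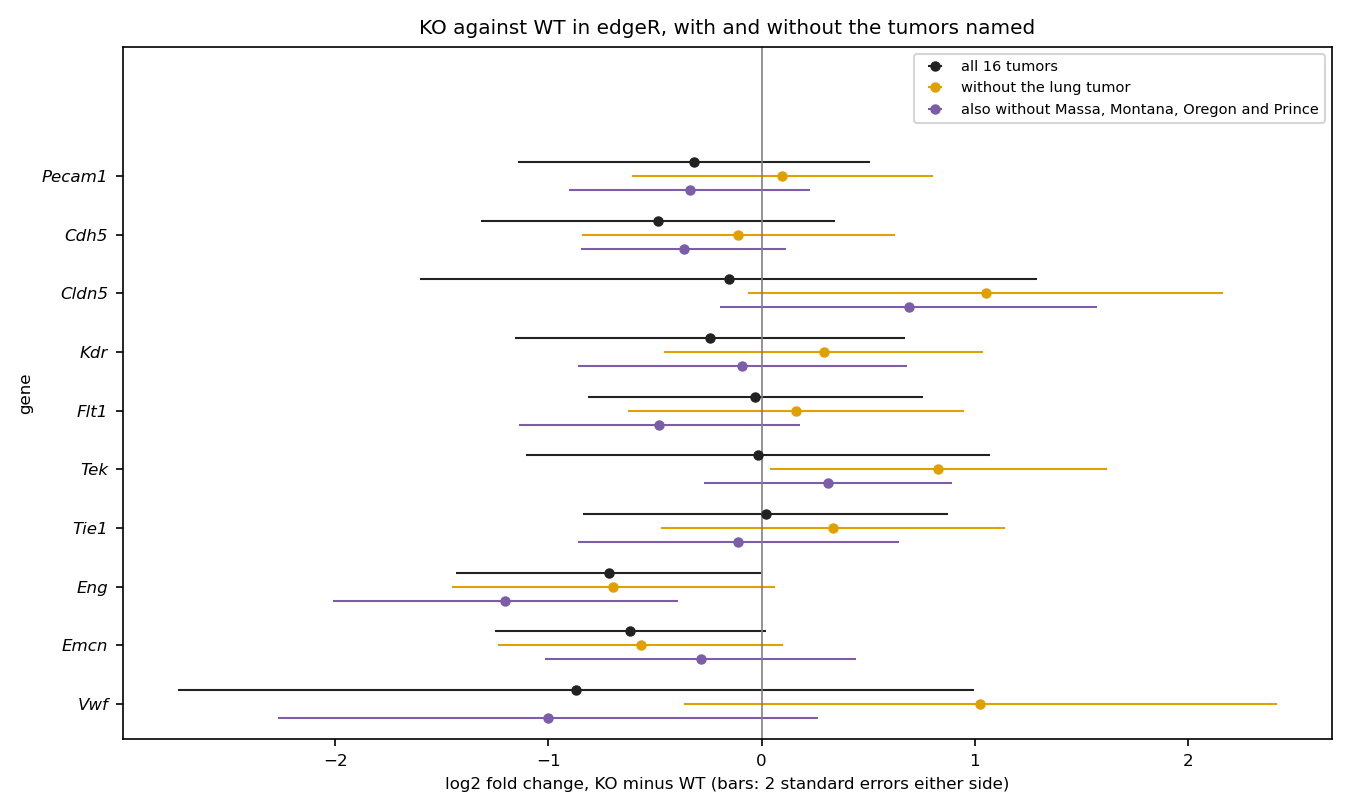
Log2 fold change of each gene between KO and WT in edgeR with 2 standard errors on either side, with all 16 tumors, without the lung tumor, and also without the KO tumors Massa, Montana, Oregon and Prince. *Eng*, *Emcn* and *Cdh5* stay below 0 in all 3 fits, while *Vwf*, *Cldn5* and *Tek* move by more than 0.8 when the lung tumor is left out.

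Among the genes of cell junctions and adhesion, *Pecam1* (ENSMUSG00000020717, chromosome 11 from 106654217 to 106750628, GRCm38), which joins neighbouring endothelial cells and is also made by platelets and leukocytes, ranged in KO from 25.2 CPM in Prince through a median of 77.4 to 170 in Montana. In WT it ranged from 45.3 in N215 right hind limb through a median of 87.1 to 306 in N25 lung. As a ratio of highest to lowest, the KO range was as wide as that of WT with the lung tumor, at 6.75 each. The KO range included all 7 bone-site tumors. Between KO and WT the log2 fold change was −0.32 (SE 0.41, edgeR adjusted p = 0.692). *Cdh5* (ENSMUSG00000031871, chromosome 8 from 104101625 to 104144511), which encodes VE-cadherin of the adherens junction, ranged in KO from 13.7 CPM in Prince through a median of 87.9 to 178 in Massa, and in WT from 63.0 in N42 left limb through 102 to 324 in N25 lung. Its log2 fold change was −0.48 (SE 0.42, edgeR adjusted p = 0.517) and it stayed below 0 under all 25 alternatives. An antisense gene, *Gm29682*, is annotated at this locus without shared exon bases.

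*Cldn5* (ENSMUSG00000041378, chromosome 16 from 18776847 to 18778262), the claudin of endothelial tight junctions, had few reads. It ranged in KO from 1.16 CPM in Prince, on 14 counts, through a median of 9.85 to 37.9 in Massa, on 17 counts (95% exact Poisson interval 22.1 to 60.7, counting error only). In the bone-site WT tumors it ranged from 3.07 in N42 right femur to 13.6 in N42 right pelvis, with a median of 5.0, and it was 72.9 CPM in the lung tumor. It had a log2 fold change of −0.15 (SE 0.72, edgeR adjusted p = 0.926), and 1.05 (SE 0.56, edgeR adjusted p = 0.250) without the lung tumor. Relative to *Cdh5* in the same library, *Cldn5* was at 0.139 in KO (median of CPM ratios) and 0.0538 in bone-site WT tumors. Over all WT tumors, KO exceeded WT by 0.94 in the mean log2 ratio (SE 0.40; exact permutation of the 8 KO and 8 WT tumors, two-sided, p = 0.0364, adjusted over 5 ratios 0.182). Summed per mouse the difference was 0.70 (exact permutation test, p = 0.194).

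Of the receptors for vascular endothelial growth factor, *Kdr* (ENSMUSG00000062960, chromosome 5 from 75932827 to 75978458) ranged in KO from 9.40 CPM in Grilka, on 7 counts, through a median of 58.2 to 100.4 in Massa, and in WT from 31.1 in N42 left limb through 51.3 to 220 in N25 lung. *Flt1* (ENSMUSG00000029648, chromosome 5 from 147561604 to 147726011) ranged in KO from 35.7 in Zelda through 65.9 to 225 in Montana, and in WT from 34.7 in N215 right hind limb through 88.4 to 168 in N25 lung. *Flt1* was the only member whose highest value of all 16 tumors was in Montana. The log2 fold changes were −0.24 for *Kdr* (SE 0.46, edgeR adjusted p = 0.799) and −0.03 for *Flt1* (SE 0.39, edgeR adjusted p = 0.975). The *Kdr* to *Flt1* ratio did not separate the groups, with a mean log2 difference of 0.01 (SE 0.34, exact permutation test, p = 0.971). It was highest in Zelda at 1.44 and lowest in Grilka at 0.212, the latter on 7 and 33 counts.

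Their ligands and co-receptors form a list of 8 genes, of which 4 were higher and 4 lower in KO and none was past the threshold. *Vegfa* had 443 CPM in KO and 133 CPM in WT (means), a log2 fold change of 1.74 (SE 0.75, edgeR adjusted p = 0.176), and *Vegfb* had a log2 fold change of 1.48 (SE 0.51, edgeR adjusted p = 0.0949). The co-receptors *Nrp1* and *Nrp2* had −0.58 and −0.72 (edgeR adjusted p = 0.273 and 0.588).

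*Tek* (ENSMUSG00000006386, chromosome 4 from 94739289 to 94874976), the receptor for angiopoietins, ranged in KO from 7.30 CPM in Prince through a median of 26.9 to 69.4 in Montana. In the bone-site WT tumors it ranged from 12.1 in N42 right femur through 15.4 to 26.0 in N42 right pelvis, and it was 133 CPM in N25 lung. Massa, on 22 counts, Medusa, Montana and Oregon lay above all 7 bone-site tumors. Medusa was at 30.0 CPM (95% exact Poisson interval 25.3 to 35.3, counting error only), so its place above them is not settled at its depth. The log2 fold change was −0.02 (SE 0.54, edgeR adjusted p = 0.990), and 0.83 (SE 0.39, edgeR adjusted p = 0.202) without the lung tumor. *Tie1* (ENSMUSG00000033191, chromosome 4 from 118471191 to 118490061), its orphan relative, ranged in KO from 6.71 in Grilka, on 5 counts, through 36.8 to 91.1 in Montana, and in WT from 17.9 in N215 right hind limb through 31.9 to 94.8 in N25 lung, with a log2 fold change of 0.02 (SE 0.43, edgeR adjusted p = 0.985). The *Tek* to *Tie1* ratio differed by 0.36 on the log2 scale (SE 0.28, exact permutation test, p = 0.222). Of the 3 angiopoietins, *Angpt1*, which activates TEK, and *Angpt2*, which can antagonize it, had log2 fold changes of 0.10 and −0.33 (edgeR adjusted p = 0.939 and 0.672). *Angpt4* was at 4.30 CPM in KO and 56.4 CPM in WT (means), a log2 fold change of −3.60 (SE 1.03, edgeR adjusted p = 0.0558).

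*Eng* (ENSMUSG00000026814, chromosome 2 from 32646595 to 32682669) encodes endoglin, a co-receptor for TGF-beta and BMP ligands that mesenchymal cells also make. It ranged in KO from 35.5 CPM in Medusa through a median of 51.8 to 147 in Massa, and in WT from 28.2 in N215 right hind limb through 109 to 186 in N43 spine. Of the KO tumors, 7 were at 82.4 CPM or below and 6 of the 8 WT tumors were above that value. Its log2 fold change of −0.72 (SE 0.36, edgeR adjusted p = 0.241) had the smallest p of the 10 genes, and it was below 0 under all 25 alternatives, with adjusted p from 0.0699 without Massa to 0.752 with counts summed per mouse. Massa had 66 *Eng* counts. Of the 13 genes in the list of the endoglin and ALK1 pathway, 11 were tested and 8 were lower in KO, against 44.1% of all genes. Past the threshold was 1 of the 11, against 4.01% of all genes. That gene, *Tgfbr2*, the type 2 receptor for TGF-beta, was lower in KO at 90.9 CPM than in WT at 204 CPM (means), with a log2 fold change of −1.18 (SE 0.30, edgeR adjusted p = 0.0395). The call of *Tgfbr2* was lost with mouse as a random effect (limma, −1.09, adjusted p = 0.374), with counts summed per mouse (−0.97, edgeR adjusted p = 0.589) and when any 1 tumor other than Massa, Zelda, N215 right hind limb and N25 lung was left out, with adjusted p up to 0.0774. *Bmpr2* had −0.79 (edgeR adjusted p = 0.187). *Eng* overlaps *Fpgs* on the other strand by 61 exon bases, 1.51% of its exon length, and no source used here states whether the counting kept the strands apart. *Fpgs* was at 25.9 CPM in KO and 9.79 CPM in WT (means).

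*Emcn* (ENSMUSG00000054690, chromosome 3 from 137341067 to 137432185) encodes endomucin, a sialomucin of capillary and venous endothelium that is abundant in bone capillaries coupled to bone formation. It was 17.3 CPM in Montana, 19.1 in Ohio, 20.1 in Grilka and 23.4 in Medusa. It was lower, from 5.90 to 8.95 CPM, in Massa, Prince, Zelda and Oregon, below all 7 bone-site WT tumors, which lay between 12.6 and 27.9 with a median of 22.4. Massa had 4 *Emcn* counts (95% exact Poisson interval 2.43 to 22.8 CPM) and Grilka 15 (11.3 to 33.2 CPM), so the place of Massa below the bone-site tumors is not settled at its depth. No KO tumor lay above them. Between the groups the log2 fold change was −0.62 (SE 0.32, edgeR adjusted p = 0.254), below 0 under all 25 alternatives. Against *Pecam1*, *Emcn* was at a median ratio of 0.193 in KO and 0.250 in bone-site WT tumors. The mean log2 ratio, KO minus WT, was −0.33 (SE 0.44, exact permutation test, p = 0.462).

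*Vwf* (ENSMUSG00000001930, chromosome 6 from 125546774 to 125686679), the blood glycoprotein that tethers platelets to damaged vessels, varied the most of the 10 among the KO tumors. It was 4.29 CPM in Ohio, 6.55 in Medusa and 6.71 in Grilka, on 45, 31 and 5 counts. It was 49.2 in Zelda, 68.2 in Prince, 72.4 in Oregon, 145 in Massa and 222 in Montana. The bone-site WT tumors lay between 16.9 and 58.5, so 3 KO tumors lay below all of them, 4 above and Zelda among them, and N25 lung was at 801 CPM. In the 3 low tumors *Pecam1* was 43 to 67.2 CPM, below its bone-site median of 83.5, and *Eng* was at 0.335 to 0.457 times its own. *Tek*, *Cdh5* and *Flt1* in Medusa were at or above the bone-site median. In Ohio *Cdh5* and *Flt1* were below it, at ratios of 0.848 and 0.670, and *Tek* was above it at 1.55. Grilka was below it for 9 of the 10 genes. The SD of log2 CPM of *Vwf* was 2.19 in KO and 0.69 in the bone-site WT tumors. The log2 fold change was −0.87 (SE 0.93, edgeR adjusted p = 0.615), 1.03 (SE 0.70, edgeR adjusted p = 0.379) without the lung tumor, and −1.0 (SE 0.63, edgeR adjusted p = 0.338) when Massa, Montana, Oregon and Prince were left out too. In DESeq2 it was 1.04, where the lung tumor's count of 12404 was treated as an outlier and replaced by 670. The megakaryocyte and platelet list of 10 genes summed to between 21.4 and 307 CPM in KO and between 36.8 and 217 CPM in WT, highest in Zelda and N25 lung. *Itga2b*, a defining marker, was 51.7 CPM in Zelda, 30.1 in N25 lung, 8.03 in Medusa and 3.32 in Montana, and was at 0 counts in Massa and Grilka. Its part in the *Vwf* values was not tested. Of the 6 *Vwf* partners 2 were tested, *F8* at 0.998 on the log2 scale (edgeR adjusted p = 0.166) and *Selp* at −0.09 (adjusted p = 0.960).

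**Figure D3:**
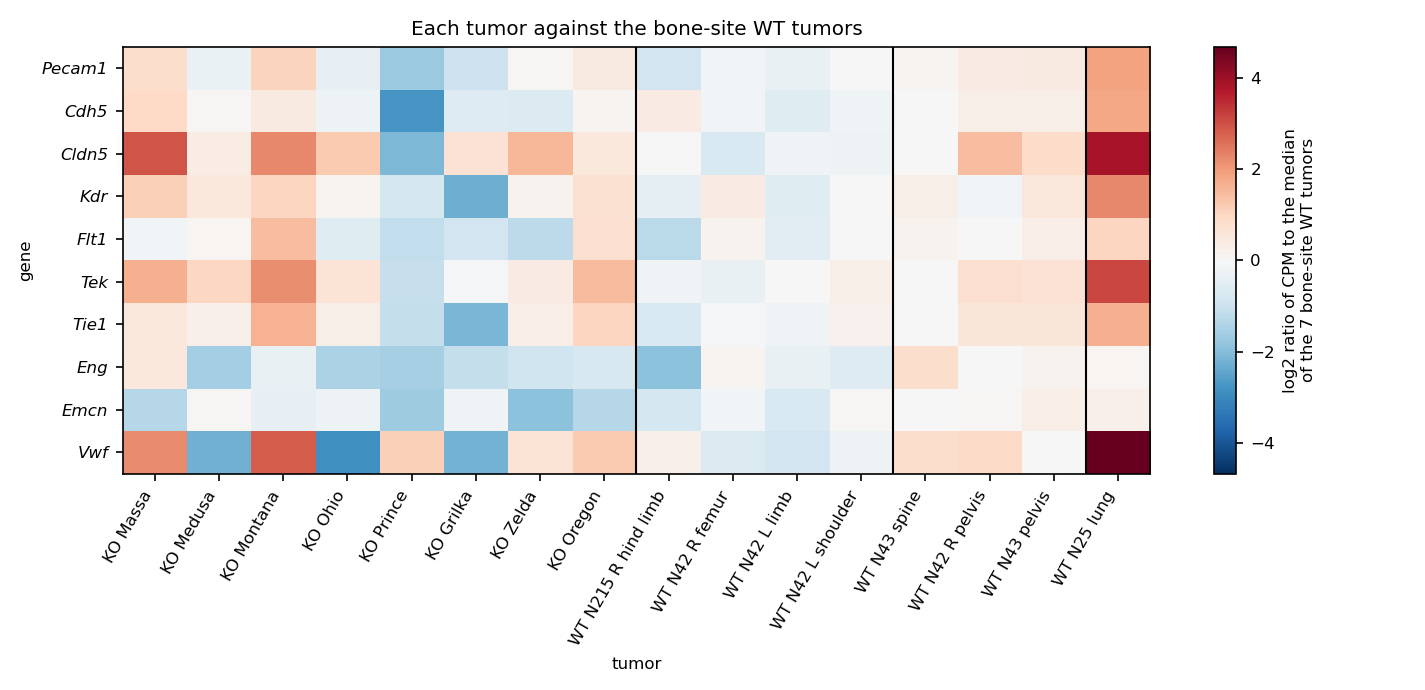
Log2 ratio of each gene's CPM in each tumor to the median of the 7 bone-site WT tumors; red is above and blue below that median. Prince and Grilka are below it for 9 of 10 genes, the lung tumor is above it for all 10, and *Vwf* is low in Medusa, Ohio and Grilka and high in Massa and Montana.

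Taken tumor by tumor, the KO tumors differed from the bone-site WT tumors in both directions. Montana was above the bone-site median for 8 of 10 genes, with a median ratio of 2.36 and *Emcn* lowest at 0.776. Oregon was above it for 8, with a median ratio of 1.52, and Massa for 8, with a median of 1.84. In these 3 tumors *Emcn* was the member with the lowest ratio, in Massa on 4 counts. The same held in Zelda, where the *Emcn* ratio was 0.264. Prince was below for 9 of 10, with a median ratio of 0.396 and *Vwf* as the exception at 2.18. Grilka was below for 9, with a median of 0.523. Medusa, Ohio and Zelda had medians of 1.06, 0.851 and 1.08. The muscle, lung and salivary gland levels given above were high in Montana and Oregon, in Massa and in Prince. The list of 10 genes of lung capillaries summed to 531 CPM in N25 lung and 513 in Massa, above the 191 to 412 CPM of the bone-site WT tumors. The sums of Oregon, Prince and Montana, 388, 305 and 292 CPM, lay within that range. *Sgk1* alone was 253 CPM in Oregon, 242 in Prince and 257 in N43 spine, the bone-site maximum. The sums of Oregon and Prince were therefore mostly this gene, while in Montana it was 85.5 CPM. In Montana and Oregon *Tmem100* was 102 and 93.1 CPM, above the bone-site maximum of 55.9. *Ednrb* was 23.7 and 9.79 CPM in them, below the bone-site minimum of 26.9. The part of vessels from these tissues in the 10 genes was not tested. Without Massa, Montana, Oregon and Prince, all 10 log2 fold changes were below 0, with a median of −0.65 and adjusted p from 0.0762 to 0.757. Without the lung tumor as well, 8 were below 0, with a median of −0.31.

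The lung tumor of N25 stood apart from the other WT tumors for most of the genes. It was above all 7 bone-site WT tumors for 8 of 10 genes, against 20.5% of all genes, and more than 2 times above the highest of them for 7 of 10, against 5.99%. *Vwf* was 25.5 times the bone-site median, *Cldn5* 14.6 times, *Tek* 8.65 times and *Kdr* 4.77 times. *Pecam1*, *Cdh5*, *Tie1* and *Flt1* were 3.66, 3.48, 3.19 and 2.02 times that median. *Emcn* and *Eng* were 1.18 and 1.07 times the median, within the range of the bone-site tumors. The lung epithelial genes *Scgb1a1* and *Sftpc* were at 19714 and 2411 CPM in this tumor, and their part in these values was not tested. The group is 1 tumor, so the difference has no replicate check.

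The WT tumors with a bone site allowed a comparison of 3 tumors of spine or pelvis with 4 of limb or shoulder. No gene of 17131 was past the threshold in edgeR (0%), 3.74% had an unadjusted p under 0.05, and 2.86% were higher in spine and pelvis at that level. DESeq2 called 31 genes, none of the 10 among them. All 10 endothelial genes had a log2 fold change above 0, against 49.3% of all genes, with a median of 0.56. For 3 of the 10 the unadjusted p was under 0.05. *Pecam1* was 90.7, 109 and 112 CPM in spine and pelvis and 45.3, 65.9, 76.4 and 83.5 CPM in limb and shoulder. These groups did not overlap, and 2.74% of all genes were separated in this direction. The log2 fold change was 0.63 (SE 0.26, edgeR unadjusted p = 0.0399, adjusted p = 0.974).

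*Vwf* was 31.3, 55.4 and 58.5 CPM in spine and pelvis and 16.9, 19.5, 26.3 and 37.2 in limb and shoulder, with a log2 fold change of 0.98 (SE 0.34, edgeR unadjusted p = 0.0205, adjusted p = 0.974). *Cldn5* was 5.0, 9.13 and 13.6 CPM against 3.07, 4.25, 4.44 and 5.10, with a log2 fold change of 1.15 (SE 0.39, edgeR unadjusted p = 0.0191, adjusted p = 0.974). The groups overlapped for both. The other 7 genes had log2 fold changes from 0.29 for *Cdh5* to 0.89 for *Eng*. Spine and pelvis tumors came from N42 and N43, and limb and shoulder tumors from N42 and N215. Within N42, the right pelvis was above the other 3 tumors for 6 of 10 genes, *Pecam1*, *Cdh5*, *Tek*, *Tie1*, *Vwf* and *Cldn5*, by 1.45 to 3.47 times their mean. The share of all genes for which it was above those 3 tumors was not computed, so this count has no baseline. Only N42 had tumors of both site classes. With mouse as a covariate the site effect therefore came from its right pelvis against its other 3 tumors, with no replicate of the pelvis. In that fit the log2 fold changes of *Vwf* and *Cldn5* were 1.5 and 1.8, and that of *Pecam1* was 0.55. *Flt1* went from 0.47 to 0.08, *Eng* from 0.89 to 0.25, *Emcn* from 0.50 to 0.29 and *Kdr* from 0.38 to −0.11. The limb group held N215 right hind limb, the lowest of the 7 bone-site tumors for *Pecam1*, *Flt1*, *Tie1*, *Emcn* and *Eng*. Without it all 10 were above 0, with *Pecam1* at 0.47, *Eng* at 0.62 and *Vwf* at 1.22 (edgeR unadjusted p = 0.0434, 0.0711 and 0.00415). Skeletal muscle genes were above 0 in 14 of 14 and the 4 erythroid genes tested in 4 of 4, with medians of 1.17 and 3.87. Their part in the endothelial values was not tested.

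Other genes of vessels were counted in lists written with earlier results of these data known. Of 21 further endothelial markers, 14 were lower and 7 higher in KO, none past the threshold, with a median of −0.28, and 20 of 21 were above 0 in spine and pelvis, with a median of 0.51. *Ptprb*, *Adgrf5* and *Cd93*, the most abundant, had log2 fold changes between KO and WT of −0.60, −0.55 and −0.96 (edgeR adjusted p = 0.573, 0.610 and 0.182). Of 13 endothelial transcription factors 6 were higher and 7 lower in KO, and of 11 arterial genes 3 were higher and 8 lower, none past the threshold. The arterial ligand *Efnb2* was at −0.43 (edgeR adjusted p = 0.621). Of 10 venous and sinusoidal genes 9 were tested and 2 were past the threshold, against 4.01% of all genes. *Stab1*, a scavenger receptor that macrophages also make, averaged 91.7 CPM in KO, below the 330 of WT (log2 fold change −1.84, edgeR adjusted p = 0.0198), and *Stab2*, a scavenger receptor of sinusoids, averaged 46.1 CPM in KO and 2.37 CPM in WT (log2 fold change 4.29, SE 1.18, edgeR adjusted p = 0.0493). The WT tumors of N42 and N43 had *Stab1* from 301 to 584 CPM. N215 right hind limb at 92.1 CPM and N25 lung at 91.7 CPM lay within its KO range of 26.8 to 170 CPM. The KO mean of *Stab2* rested on Zelda at 278 CPM, with a KO median of 8.57 CPM and 0 counts in Massa and Grilka. Without Zelda its log2 fold change was 2.48 (edgeR adjusted p = 0.104), and the adjusted p ran from 0.0343 to 0.104 over the fits that left out 1 tumor. Zelda also had the highest sum of the liver list, 1987 CPM against at most 286 in the other tumors, and its part in the *Stab2* value was not tested. With mouse as a random effect in limma neither gene was called (adjusted p = 0.489 for *Stab1* and 0.647 for *Stab2*), and the same held with counts summed per mouse (edgeR adjusted p = 0.512 and 0.587). Of 6 lymphatic genes 5 were tested, 2 higher and 3 lower in KO and 5 of 5 above 0 in spine and pelvis, and of 8 genes of tip cells, the leading cells of sprouts, 7 were tested in KO against WT, 4 higher and 3 lower, and 8 for site, of which 7 were below 0 in spine and pelvis, with a median of −0.31. Of the 9 junction genes 7 were tested, 3 higher and 4 lower, and of 10 genes of lung capillaries 9, 3 higher and 6 lower. Pericyte and smooth muscle genes, which mark the cells around vessels, were higher in 8 and lower in 3 of 11 tested, with *Pdgfrb* at −0.47 and *Des*, which skeletal muscle also makes, at 2.72 (edgeR adjusted p = 0.666 and 0.217). Of the liver list 2 genes were tested, 1 higher and 1 lower.

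Macrophage genes, which mark another host cell type, are given beside these. All 11 were lower in KO, against 44.1% of all genes, with a median of −2.03. Of them 8 were past the threshold, against 2.15% of all genes past it and lower in KO. With mouse as a random effect in limma all 11 were again lower, 0 were called (adjusted p from 0.243 to 0.610) and 9 had an unadjusted p under 0.05. Of all 15413 genes in that fit, 17 were called and 1371 had an unadjusted p under 0.05. With counts summed per mouse all 11 were lower, 0 were called in edgeR (adjusted p from 0.266 to 0.895) and 8 had an unadjusted p under 0.05. Of all 16007 genes there, 10 were called and 1262 had an unadjusted p under 0.05. In edgeR over tumors, the number of macrophage genes called was 5 without N42 right femur and 5 without Massa, Montana, Oregon and Prince. The difference between this list and the endothelial genes was not tested. The summed macrophage level was 330 to 2137 CPM in KO, highest in Massa, and 753 to 2863 CPM in WT. *Lyz2* alone reached 1909 CPM in KO and was 1377 CPM in N25 lung, whose sum was 1822 CPM. In Massa 3 of the 11 genes had 0 counts. *Mrc1* and *Csf1r* were 66.9 and 84.9 CPM in N25 lung. Their means were 60.4 and 68.5 CPM in KO, and 305 and 282 CPM in WT. Of 12 osteoblast genes 10 were lower, none past the threshold, with a median of −1.36.

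Across the 16 tumors most of the genes varied together. Spearman's rho of log2 CPM was above 0 in 44 of 45 pairs and at least 0.5 in 27, with a median of 0.56. These are descriptions over tumors that share mice and differ in depth, and they carry no test. *Tek* and *Tie1* were the closest pair at 0.91, although their levels per kilobase differed. *Pecam1* had the highest median rho with the other 9, 0.74, followed by *Kdr* with 0.73. *Emcn* had the lowest, 0.23, then *Eng* with 0.38 and *Vwf* with 0.47. *Vwf* and *Emcn* were the only pair below 0, at −0.22, and at −0.45 without the lung tumor. With counts summed over the 12 mice, 44 of 45 pairs were again above 0 and the median was 0.63. There *Kdr* with *Tek* (0.944) and *Pecam1* with *Tie1* (0.937) were closer than *Tek* with *Tie1* (0.923).

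**Figure D4:**
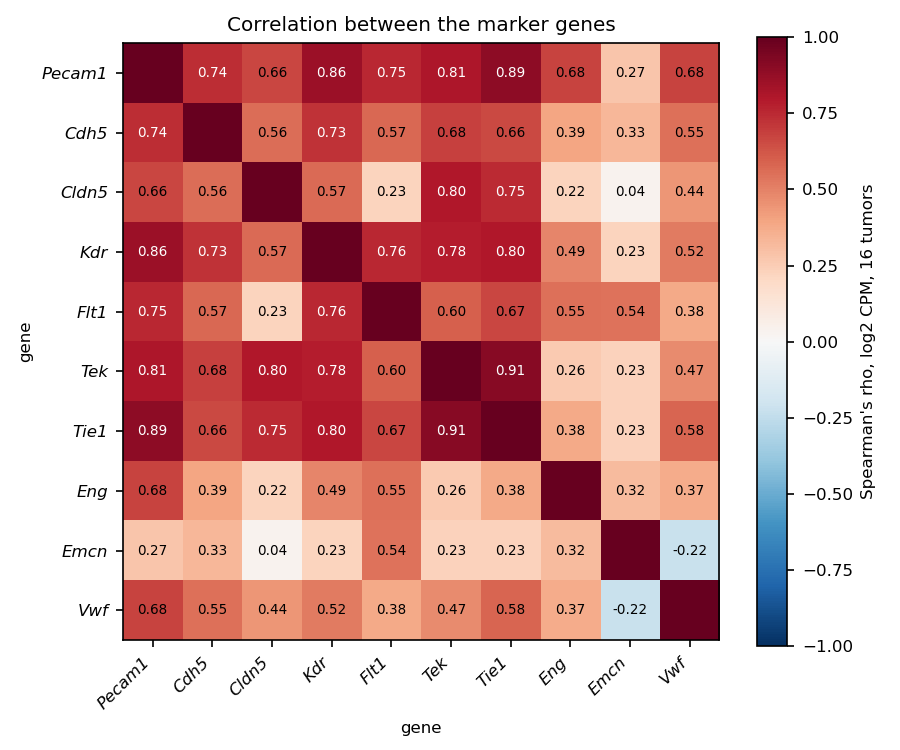
Spearman's rho of log2 CPM between each pair of the 10 genes over 16 tumors, from blue (−1) through white (0) to red (1). *Tek* and *Tie1* stand at 0.91 and the row of *Emcn* is palest, with −0.22 against *Vwf*.

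Over 15403 other genes, the 10 whose log2 CPM most resembled the mean of the standardized levels of the markers were *Esam*, *Ptprb*, *Bmx*, *Adgrf5*, *Sox17*, *She*, *Fam107a*, *Ramp2*, *Ly6c1* and *Sult1a1*, with rho from 0.93 to 0.86 over 16 tumors. *Esam*, an adhesion molecule of endothelial cells and platelets, had 0.93. *Ptprb*, the endothelial phosphatase that acts on TEK, had 0.92. Of the 10, 6 were in the lists of endothelial genes used here, 6 were also among the 10 most alike with counts summed per mouse, and 7 without the lung tumor. *Bmx*, a kinase of arterial endothelium, was at 21.1 CPM in N25 lung against at most 2.38 in the bone-site WT tumors, while *She*, *Fam107a*, *Ramp2* and *Sult1a1* were highest in Massa.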

How the data were processed

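RNA from 16 osteosarcomas was depleted of ribosomal RNA, and single-end 50-cycle reads were aligned by the authors with Novoalign 2.08.01 to mm10 and Ensembl splice junctions, with several alignments allowed per read and the best kept. The authors counted reads per gene with USeq, ran DESeq2 1.26.0, and deposited the raw counts used here. Every gene listed has at least 6 counts in all. No 2 columns held identical counts. Groups, mice and sites came from the labels. Members and gene lists were chosen with earlier results of these data known. Named genes are the 10 members, the 3 most abundant tested genes of each list and those past the threshold, the 10 most alike genes and the floxed genes. *Vegfb*, *Fpgs*, *Gm29682*, *Scgb1a1* and *Sftpc* are not covered by this choice and were picked with their values in view.

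The tests were edgeR 4.0.16 in R 4.3.3 (TMM, filterByExpr with minimum count 10 and minimum total 15, glmQLFit and glmQLFTest, two-sided, Benjamini-Hochberg over all genes tested) and two-sided exact permutation tests of 5 log2 ratios with prior count 2. Log2 CPM used the same prior count. CPM come from the normalization over 16 tumors, also where 7 were tested. Nothing in the labels says whether samples of 1 mouse were prepared together. Alternatives used DESeq2 1.42.0, RLE, no filter, sums per mouse, limma 3.58.1 with mouse as a random effect (statmod 1.5.0, correlation 0.762) and tumors left out. The 2 alternatives chosen after seeing the data were the fits without the KO tumors Massa, Montana, Oregon and Prince. The procedure of both edgeR fits was also run on simulated counts, with tumors drawn independently. At a true log2 change of 1.5 it found 27 of 98 changed genes for KO against WT and 4 of 100 for site, so most changes of that size were missed. At a change of 3 it found 73 of 92 and 55 of 95. Positions and exon lengths are from GENCODE vM21 (GRCm38), where 24974 of 25054 genes were found. Tests of ratios, correlations and plots used Python 3.11.15 (scipy 1.17.1, numpy 2.4.6, pandas 2.3.3, matplotlib 3.10.9). The median counting half-width over the 10 genes (95% exact Poisson interval, counting error only) was 59.5% in Grilka, 32.8% in Massa and from 4.10% to 15.5% elsewhere.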

Additional observations from a re-analysis of the deposited data

Results flagged for a closer look

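In 9 of 40 groups tested, the gap between the most extreme tumor and its nearest neighbour was above 0.526 of the range of the group. Chance would flag about 1 in 20 such groups (5%) if values were independent and normally distributed. CPM need not be normal and tumors of 1 mouse are not independent, so the 5% is only a rough guide. The lung tumor of N25 was the flagged tumor in 8 of the 9, among the 8 WT tumors. Its CPM were 306 for *Pecam1*, 324 for *Cdh5*, 220 for *Kdr*, 133 for *Tek*, 94.8 for *Tie1*, 801 for *Vwf* and 72.9 for *Cldn5*, all the highest of the WT tumors, and its log2 ratio of *Emcn* to *Pecam1* was −3.53, the lowest. *Eng*, *Emcn* and *Flt1* were not flagged there. The KO tumor Massa was flagged for *Eng* at 147 CPM, on 66 counts. These 10 genes are correlated, so the flags of 1 tumor are not independent of each other.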

How the results depend on the processing

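No member was past the threshold under any of the 25 alternatives for KO against WT or the 12 for site. No paired analysis was possible because the KO and WT tumors share no mice. The number of genes called between KO and WT moved from 618 to 2517 with DESeq2, 10 with counts summed per mouse, 17 with limma and mouse as a random effect, 8 without N42, 976 without the KO tumors Massa, Montana, Oregon and Prince, 1195 when the lung tumor was left out with them, and 252 to 1348 when 1 tumor at a time was left out, lowest without N42 left shoulder and highest without Zelda. For site DESeq2 called 31. The cause was not tested. Of 250 log2 fold changes of members between KO and WT in these, 36 changed sign. *Cdh5*, *Emcn* and *Eng* kept theirs. Without the lung tumor the values were 0.10 for *Pecam1*, 0.29 for *Kdr*, 0.16 for *Flt1*, 0.83 for *Tek*, 1.03 for *Vwf* and 1.05 for *Cldn5*. *Flt1* was 0.00181 with DESeq2, 0.00504 with RLE and 0.0687 without the 2 shallowest KO tumors, and *Tek* 0.0261 with DESeq2 and 0.0262 with RLE. *Vwf* was 1.04 with DESeq2. *Tie1* was −0.14 per mouse, −0.18 with limma, −0.0474 without the filter, −0.17 without N42, −0.42 without Massa, Montana, Oregon and Prince, and −0.11 without these and the lung tumor, where *Tek* was 0.31 and *Cldn5* 0.69. Leaving out 1 tumor at a time gave −0.53 to 0.10 for *Pecam1*, −0.39 to 0.29 for *Kdr*, −0.40 to 0.16 for *Flt1*, −0.30 to 0.83 for *Tek*, −0.28 to 0.33 for *Tie1*, −1.41 to 1.03 for *Vwf* and −0.50 to 1.05 for *Cldn5*. For site, *Kdr* was −0.11 with mouse as a covariate. The *Kdr* to *Flt1* log2 difference was −0.25 per mouse and −0.0110 with prior count 0.5. Of the 10 most alike genes, 6 were shared with the ranking over mice. With 5 to 46 counts per member in Grilka and 4 to 80 in Massa, differences under the intervals given above were not detectable in these tumors.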
